A study of Mus musculus with 3 samples.

Results

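The adult globin genes Hbb-bs, Hbb-bt, Hba-a1 and Hba-a2 were followed across 3 single-cell RNA libraries of mouse bone marrow, as 4 genes chosen by name from 27998 in the gene list. They had been picked because earlier work on the same files showed them to differ between libraries, so their levels by library and the ratio of Hbb-bt to Hbb-bs are given as descriptions, without a test. The mCherry library held DAPI-negative, lineage-negative, c-kit-positive cells that carried the mCherry reporter, from a C57BL/6 mouse that was heterozygous for a conditional knock-in of Runx1-Runx1t1 (the AML1-ETO fusion) with Mx1-Cre, after Poly[I:C]. The non_mCherry library held reporter-negative cells of the same gate from the same mouse. The control library held cells of that gate from a wild-type C57BL/6 mouse, so that 2 mice and 1 library per group are compared. The labels give no ages and do not say if the wild-type mouse had Poly[I:C] too. Mx1-Cre is driven by an interferon-responsive promoter and acts in many blood cells, and cells that did not recombine carry neither the fusion protein nor the reporter. With 1 library per group no difference has a replicate check, no test is given, and all intervals are 95% intervals for counting error only.

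Adult haemoglobin is a tetramer of alpha and beta chains with haem, and red cell precursors make its messages in large amounts late in their maturation. In the mouse the alpha and beta chains come from separate gene clusters, in which embryonic genes are used early and adult genes later. Hbb-bs and Hbb-bt encode the adult beta chains of C57BL/6 mice, and Hba-a1 and Hba-a2 the adult alpha chains. The erythroid factor Klf1 binds CACCC motifs and is needed for adult beta globin expression.

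The beta genes are neighbours on chromosome 7 (GRCm38, GENCODE vM21). Hbb-bt (ENSMUSG00000073940) lies at chr7:103812524-103813996 and Hbb-bs (ENSMUSG00000052305) at chr7:103826534-103828096, both on the minus strand with 12537 bases between them. The alpha genes lie on the plus strand of chromosome 11, with Hba-a1 (ENSMUSG00000069919) at chr11:32283511-32284465 and Hba-a2 (ENSMUSG00000069917) at chr11:32296489-32297298. RefSeq promoter sequences of the build GRCm38.p6 were found for 4 of the 4 genes. The 150 bases before each start are shown because the 2 beta genes, of which Hbb-bt was higher and Hbb-bs lower in mCherry, differ there. Capitals mark CACCC, the motif CCAAT (which reads ATTGG from the other strand), the motif GATAA and the motif TATAA, searched on both strands.
Hbb-bt: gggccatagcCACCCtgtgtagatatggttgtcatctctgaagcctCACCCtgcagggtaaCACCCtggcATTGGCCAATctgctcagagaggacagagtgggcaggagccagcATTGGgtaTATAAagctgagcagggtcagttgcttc
Hbb-bs: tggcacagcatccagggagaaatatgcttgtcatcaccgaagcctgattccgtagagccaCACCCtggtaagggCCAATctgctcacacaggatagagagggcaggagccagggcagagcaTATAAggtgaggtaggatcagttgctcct
Hba-a1: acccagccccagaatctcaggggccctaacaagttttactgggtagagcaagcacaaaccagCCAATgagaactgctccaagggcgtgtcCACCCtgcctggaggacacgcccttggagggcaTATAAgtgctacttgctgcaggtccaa
These are the minus strand of chr7:103813924-103814073 for Hbb-bt, the minus strand of chr7:103827929-103828078 for Hbb-bs and the plus strand of chr11:32283522-32283671 for Hba-a1. Starts here are those of RefSeq, which differ from the GENCODE gene bounds above. The Hbb-bs and Hba-a1 stretches, and part of the Hbb-bt stretch, lie inside the GENCODE genes.

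The Hbb-bt stretch held CACCC 3 times, starting 140, 104 and 89 bases before the start, and CCAAT 3 times, of which 2 were on the opposite strand. Hbb-bs had CACCC at 90 bases and CCAAT at 76 bases, each 1 time. Its CACCC sits inside the longer string CCACACCCT, which did not occur in the Hbb-bt stretch. Both genes had TATAA, 28 bases before the start in Hbb-bt and 29 in Hbb-bs, and GATAA was in neither. Of 32851 promoters in the same table, 37.4% held CACCC in this window, 0.521% held CCACACCCT, 24.5% held CCAAT, 13.3% held GATAA and 14.2% held TATAA, counted on both strands. Aligned over 148 bases, the beta stretches were identical at 110 positions (74.3%). The Hba-a2 stretch was identical to that of Hba-a1 over 147 aligned bases, shifted by 3 bases because the annotated starts differ. A motif match is a description of the letters and not evidence of binding.

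Whether reads can be told apart between the copies differs by pair. The transcripts Hbb-bt-201 (703 bases) and Hbb-bs-201 (628 bases) were identical at 92.8% of 626 aligned positions. Of 410 windows of 91 bases in the last 500 bases of Hbb-bt, 250 also occurred in Hbb-bs, but all 160 windows that began within 250 bases of the 3′ end were distinct. The labels do not name the end of the transcript that was tagged, and if tags lay elsewhere than near the 3′ end, the split between Hbb-bt and Hbb-bs would be less certain. The alpha transcripts were identical at 99.8% of 538 aligned positions, and 77.8% of the windows of Hba-a1 also lay in Hba-a2. The split between Hba-a1 and Hba-a2 is therefore uncertain. A UMI tags a captured transcript, so levels were not divided by transcript length.

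The 3 matrices held 92776556 to 150702749 UMIs in 9751 to 11323 barcodes, of which 10172 mCherry, 7852 non_mCherry and 8849 control cells passed the filters, with median depths of 8179 UMIs per cell in mCherry, 9247 in non_mCherry and 15416 in control. Each pair of libraries shared 24 to 42 barcode sequences. Runx1t1, part of the knock-in, stood at 8.49 CPM (the UMIs of a gene scaled to 1 common library total) in mCherry, 0.311 CPM in non_mCherry and 0.216 CPM in control, and the sort gene Kit at 269 CPM in mCherry, 56.6 CPM in non_mCherry and 66.8 CPM in control. The lineage genes Cd3e and Itgam stayed under 8 CPM in each library, but cells with B lineage genes were present. A B lineage gate described below held 2581 non_mCherry, 184 control and 44 mCherry cells.

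Hbb-bt was higher in mCherry cells than in either other library, while the other 3 globin genes were lower. Among filtered cells Hbb-bt stood at 352 CPM in mCherry (32487 UMIs; 95% Poisson interval 348 to 356), 67.6 CPM in non_mCherry and 118 CPM in control. Hbb-bs stood at 42.3 CPM in mCherry, 68.3 CPM in non_mCherry and 289 CPM in control. For Hba-a1 the levels were 15.5 CPM in mCherry, 47.6 CPM in non_mCherry and 143 CPM in control. For Hba-a2 they were 8.87 CPM in mCherry, 17.2 CPM in non_mCherry and 60.9 CPM in control. Hbb-bt thus ranked highest of the 4 in mCherry, where its level was 316th among all genes, and Hbb-bs ranked highest in control, where it was 453rd. In non_mCherry the intervals of Hbb-bs (66.5 to 70.0 CPM) and Hbb-bt (65.9 to 69.4 CPM) overlapped, so that their order there is not resolved.

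As plain quotients, Hbb-bt was 2.99-fold higher in mCherry than in control (2.93 to 3.05) and 5.20-fold higher than in non_mCherry (5.06 to 5.35). Hbb-bs was 6.83-fold lower in mCherry than in control, Hba-a1 9.28-fold lower and Hba-a2 6.87-fold lower. Counted on log2(CPM + 5), 1 of 4 globin genes was at least 2-fold higher in mCherry than in control and 3 lower, where 14.9% of 6576 genes tested were higher and 10% lower. Between mCherry and non_mCherry 3 of the 4 reached 20 CPM and were tested, with 1 higher and 1 lower, where 14.1% of 6566 genes were higher and 8.94% lower. Between non_mCherry and control 0 of 4 were higher and 3 lower, where 1.1% of 5631 genes were higher and 0.178% lower. These comparisons share libraries and chose the genes, so nothing is read from the counts. In such summed libraries, fewer cells of a type and less RNA per cell cannot be told apart.

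**Figure D1:**
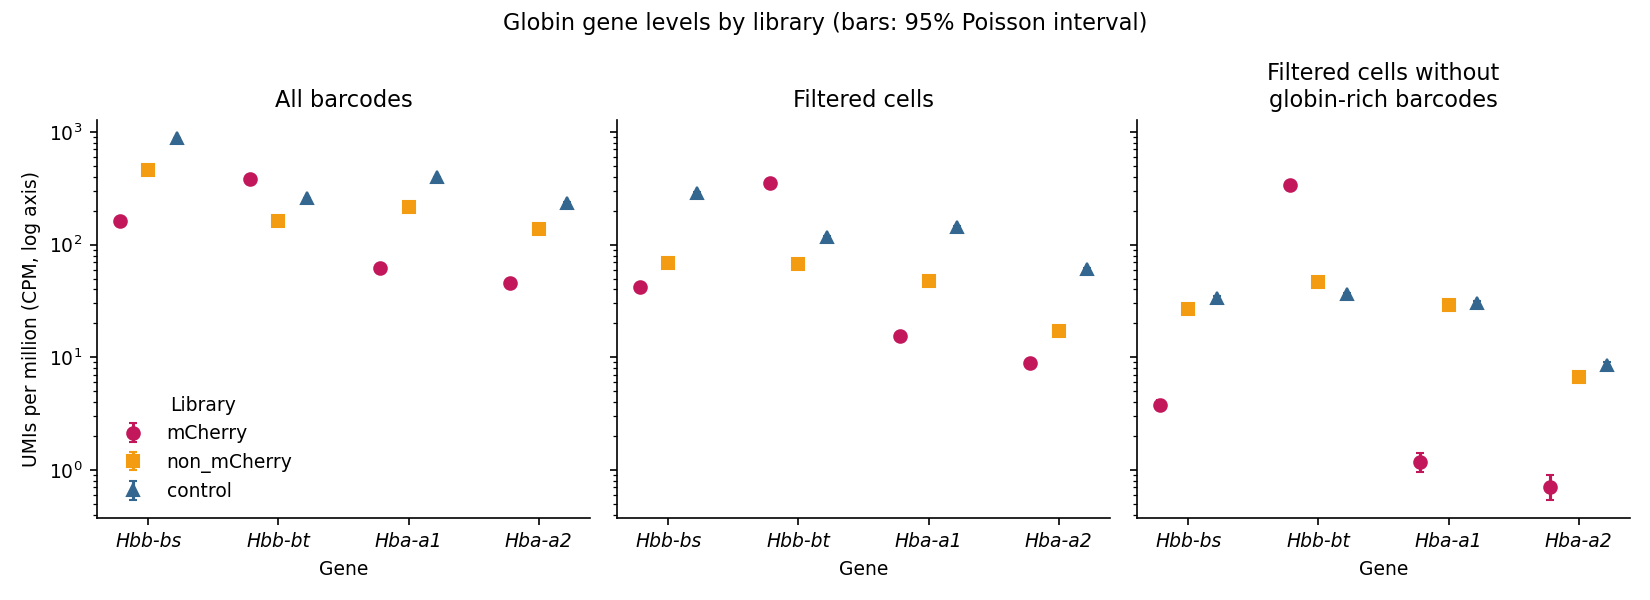
Level of each globin gene (CPM, log axis) in the mCherry, non_mCherry and control libraries, for all barcodes, for filtered cells and for filtered cells without barcodes of at least 1000 globin UMIs, with 95% Poisson intervals. Hbb-bt in mCherry stands at 383, 352 and 339 CPM in the 3 panels, while Hbb-bs in mCherry stands at 161, 42.3 and 3.78 CPM.

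Very few barcodes held most of the Hbb-bs, Hba-a1 and Hba-a2 UMIs of each library. Barcodes with at least 1000 UMIs of the 4 genes together, a limit chosen after the data were seen, numbered 4 of 11323 in mCherry, 17 of 9751 in non_mCherry and 65 of 9782 in control. They held 97.6% of the Hbb-bs UMIs of mCherry, 91.2% of those of non_mCherry and 94.5% of those of control. For Hbb-bt the shares were 12.1% in mCherry, 71.1% in non_mCherry and 83.7% in control, so that in mCherry alone the greater part of Hbb-bt lay outside them. The median such barcode had 209 genes in mCherry, 274 in non_mCherry and 293 in control. The median globin part of its UMIs was 95.3% for mCherry, 90.7% for non_mCherry and 89.2% for control. The cell filter kept 1 of them in mCherry, 2 in non_mCherry and 20 in control. The kept mCherry barcode had 4120 genes and 3555 Hbb-bs, 1136 Hbb-bt, 1321 Hba-a1 and 754 Hba-a2 UMIs, which was most of the Hbb-bs counted in filtered mCherry cells (3904 UMIs).

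In the globin-rich barcodes of each library Hbb-bt was below Hbb-bs, at pooled ratios of similar size whose intervals did not overlap between mCherry and control. Single barcodes varied more, from 0.00812 to 0.613 in control. Hbb-bt to Hbb-bs, the quotient of their UMI sums, was 0.294 in those of mCherry (0.284 to 0.304), 0.278 in those of non_mCherry (0.272 to 0.284) and 0.259 in those of control (0.256 to 0.262). Hbb-bt was the lower of the pair in every such barcode of mCherry (4), non_mCherry (17) and control (65). In these barcodes Hba-a1 to Hba-a2 stood at 1.37 for mCherry, 1.41 for non_mCherry and 1.60 for control. The alpha to beta quotient was 0.522 for mCherry, 0.580 for non_mCherry and 0.550 for control. Barcodes with at least 100 but under 1000 globin UMIs numbered 0 in mCherry, 21 in non_mCherry and 30 in control.

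**Figure D2:**
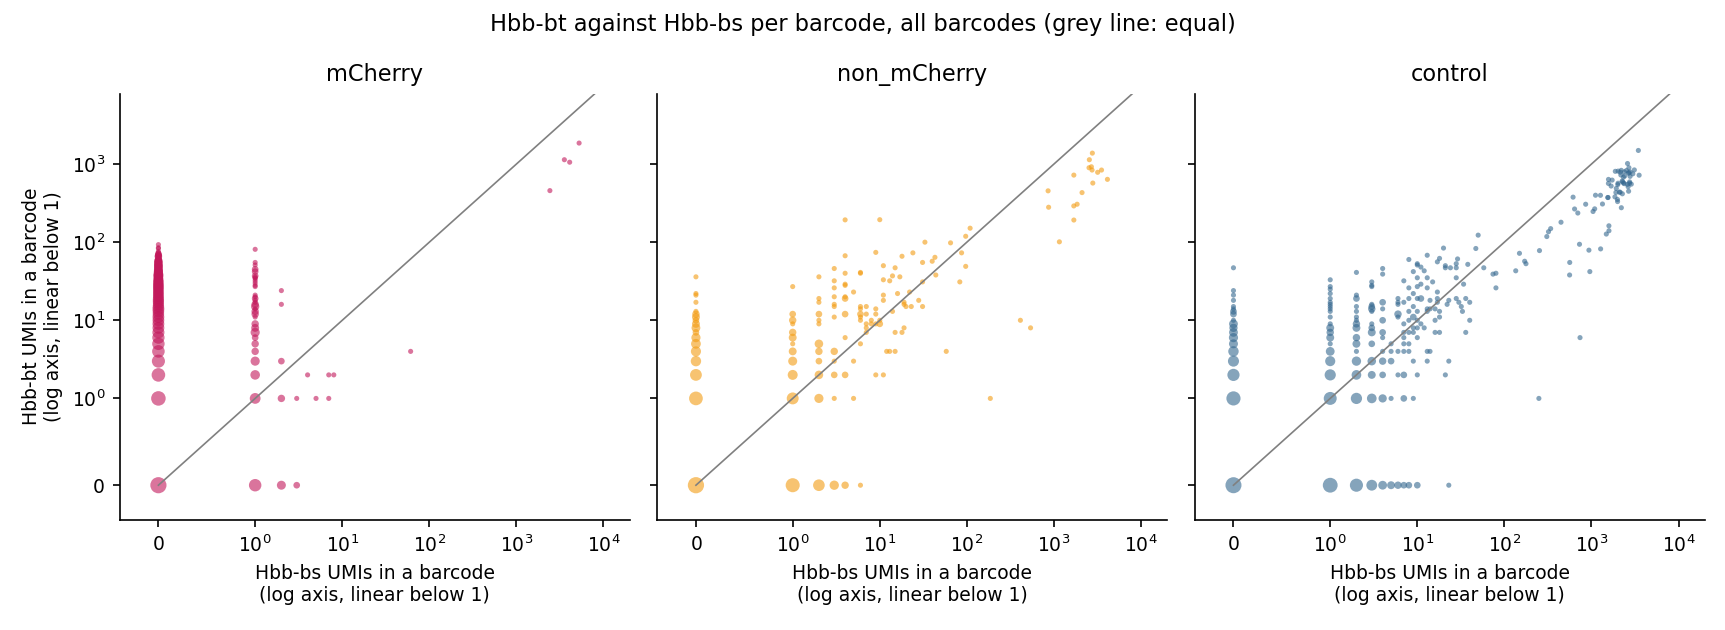
Hbb-bt UMIs against Hbb-bs UMIs in each barcode of the mCherry, non_mCherry and control libraries (all barcodes, log axes that are linear below 1, point area rising with the number of barcodes at that value, grey line at equality). In mCherry a column of barcodes reaches up to 93 Hbb-bt UMIs at 0 Hbb-bs UMIs, apart from 4 barcodes at the upper right, whereas non_mCherry and control reach higher Hbb-bt counts in barcodes that also have Hbb-bs.

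Without the globin-rich barcodes, the separation of Hbb-bt from the other genes in mCherry was wider. Those barcodes were picked by the sum of these 4 genes, and each had Hbb-bt below Hbb-bs. The wider gap is therefore in part a result of that choice and is no separate finding. Filtered cells then had 339 CPM of Hbb-bt in mCherry, 46.5 CPM in non_mCherry and 36.5 CPM in control. Hbb-bs was left at 3.78 CPM in mCherry (349 UMIs), 26.6 CPM in non_mCherry and 33.8 CPM in control. Hba-a1 stood at 1.17 CPM in mCherry, 29.4 CPM in non_mCherry and 30.5 CPM in control, so that mCherry was again far below both. Hba-a2 had 0.704 CPM in mCherry, 6.62 CPM in non_mCherry and 8.62 CPM in control. Against control, Hbb-bt was 9.31-fold higher in mCherry (9.04 to 9.58), Hbb-bs 8.95-fold lower (8.03 to 10.0), Hba-a1 26.1-fold lower (21.6 to 31.9) and Hba-a2 12.2-fold lower (9.54 to 16.0). Between non_mCherry and control the differences became small: Hbb-bt was 1.28-fold higher, where it had been 1.74-fold lower with those barcodes in, and Hbb-bs was 1.27-fold lower in place of 4.23-fold lower. For Hba-a1 the interval of the quotient (0.915 to 1.01) included 1.

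The Hbb-bt to Hbb-bs ratio was highest in mCherry and lowest in control in each of these sets. Over all barcodes it stood at 2.38 for mCherry, 0.357 for non_mCherry and 0.293 for control. Over filtered cells it stood at 8.32 for mCherry, 0.990 for non_mCherry and 0.407 for control. Filtered cells without globin-rich barcodes gave 89.8 in mCherry (80.8 to 100), 1.75 in non_mCherry (1.66 to 1.84) and 1.08 in control (1.04 to 1.12). In control the ratio thus passed from below 1 to above it when 20 cells were left out, each with Hbb-bt below Hbb-bs. The higher ratios of this last set follow in part from how those barcodes were picked.

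Klf1, the gene used to mark erythroid cells, was seen in 165 mCherry cells (1.62%), 1572 of 7852 non_mCherry cells and 1865 control cells (21.1%). In mCherry, among its 6 main clusters described below, Klf1 was highest in the basophil and mast cell-like cluster 5, at 11.3 CPM. The erythroid progenitor-like clusters 6 and 22 held 6 and 0 mCherry cells. Klf1-positive mCherry cells are therefore not shown to be erythroid and are not a like set to those of the other libraries. Among Klf1-positive filtered cells Hbb-bt to Hbb-bs stood at 2.63 in mCherry (2.00 to 3.49), 0.949 in non_mCherry (0.913 to 0.987) and 0.439 in control (0.430 to 0.448). Among Klf1-negative cells it was 8.43 for mCherry, 1.34 for non_mCherry and 0.314 for control. Without globin-rich barcodes the Klf1-positive cells had ratios of 2.63 for mCherry, 1.89 for non_mCherry and 1.38 for control. The Klf1-negative cells then had 113 for mCherry, 1.34 for non_mCherry and 0.670 for control. With those barcodes out, the ratio was higher in Klf1-negative than in Klf1-positive cells of mCherry, and lower in Klf1-negative than in Klf1-positive cells of non_mCherry and control.

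The Klf1-positive value of mCherry turned on 1 cell. Of 73 Hbb-bs UMIs in those 165 cells, 61 were in a single cell, which had 4 Hbb-bt UMIs and 2 Klf1 UMIs. Without that cell, a choice made after the data were seen, 188 Hbb-bt and 12 Hbb-bs UMIs were left, a ratio of 15.7 (8.76 to 30.9). With it, 32 mCherry cells with at least 2 Klf1 UMIs had a ratio of 0.750 (0.505 to 1.11), and 23 cells with UMIs of at least 3 of 8 erythroid genes a ratio of 0.606 (0.399 to 0.911). Klf1, Gata1, Car1 and Epor were among those 8 genes. The 8884 mCherry cells with none of the 8 had a ratio of 123 (108 to 140).

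**Figure D3:**
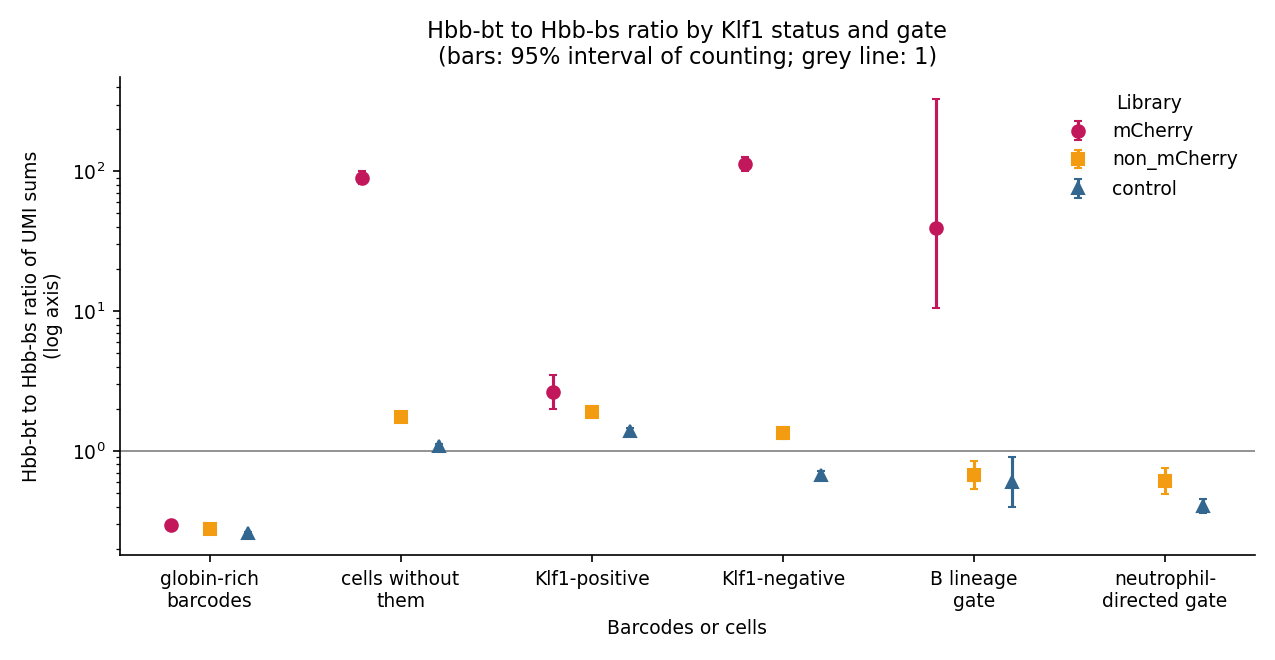
Ratio of Hbb-bt to Hbb-bs UMI sums (log axis) in the mCherry, non_mCherry and control libraries, with 95% intervals of counting. Shown are globin-rich barcodes, filtered cells without them, the Klf1-positive and Klf1-negative among those, and 2 gates chosen as lacking globin. The neutrophil-directed gate is not drawn for mCherry, where it had 0 Hbb-bs UMIs. In the B lineage gate of mCherry, 77 of 79 Hbb-bt UMIs came from cells in the main mCherry clusters. That point is therefore no globin-free reference. The 3 libraries lie together near 0.3 in globin-rich barcodes, and mCherry stands at 113 in Klf1-negative cells, where non_mCherry is at 1.34 and control at 0.670.

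In each library the ratio differed with the amount of alpha globin in a barcode. Over all barcodes, those with 0 alpha UMIs had a ratio of 122 in mCherry, 1.29 in non_mCherry and 0.733 in control. At 1 to 4 alpha UMIs it was 5.37 for mCherry, 2.03 for non_mCherry and 0.973 for control. The mCherry value leaned on 1 cell with 3 alpha UMIs, which held 61 of the 103 Hbb-bs UMIs there. At 5 to 19 it was 2.17 in non_mCherry (84 barcodes) and 1.75 in control (132 barcodes), and mCherry had 2 barcodes with a ratio of 0.182. At 20 to 99 it was 1.76 in 36 non_mCherry barcodes and 1.42 in 72 control barcodes, with 0 barcodes in mCherry. With 500 or more alpha UMIs it was 0.294 in 4 mCherry barcodes, 0.284 in 16 non_mCherry barcodes and 0.261 in 59 control barcodes. In non_mCherry and control, Hbb-bt therefore exceeded Hbb-bs at 5 to 99 alpha UMIs and stood below it from 100 on. At 100 or more but under 500, 5 non_mCherry barcodes had 0.113 and 16 control barcodes 0.259. Depth differed as well: the median at 20 to 99 alpha UMIs was 26823 UMIs in non_mCherry and 31118 in control, while at 100 or more but under 500 it was 906 UMIs in non_mCherry and 1283 in control. Its part in the ratio was not tested.

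**Figure D4:**
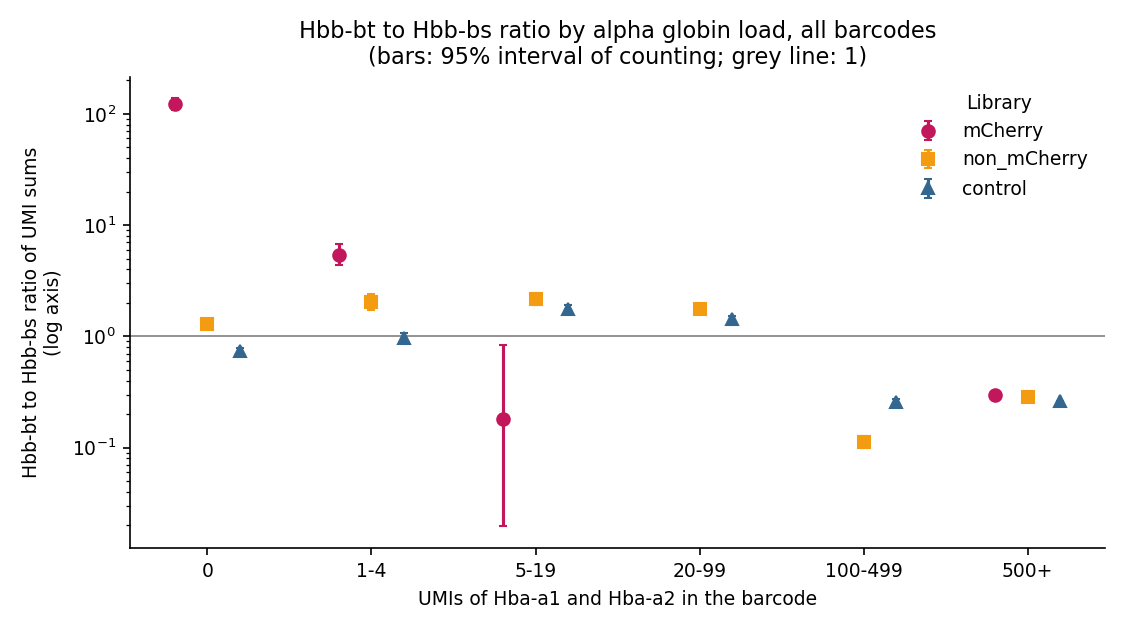
Ratio of Hbb-bt to Hbb-bs UMI sums (log axis) by the number of Hba-a1 and Hba-a2 UMIs in the barcode, for all barcodes of mCherry, non_mCherry and control, with 95% intervals of counting. Non_mCherry and control run side by side with their highest values at 5 to 19 alpha UMIs (2.17 in non_mCherry and 1.75 in control), while mCherry is at 122 where no alpha UMI was seen.

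Within mCherry, Hbb-bt was found in each of the 6 main clusters and its level varied widely between them. Cells were clustered with the globin genes taken out, and 10122 of 10171 mCherry cells without globin-rich barcodes fell in 6 clusters of at least 100 cells. Hbb-bt was highest in cluster 4 (2974 cells, led by Ccl2, Gadd45b and Lilr4b, unnamed), at 794 CPM and in 53.3% of cells (51.5 to 55.1). It stood at 370 CPM in cluster 0 (led by Cyp4b1 and Ly6a) and at 65.7 CPM in cluster 1 (3088 cells, led by Slc16a11 and Socs3), where 20.1% of cells had a UMI (18.7 to 21.6). The median depths of clusters 4 and 1 were close, at 8218 and 8150 UMIs. Cluster 2 (led by the interferon-induced gene Ifit1) had 175 CPM, cluster 3 (led by the mitotic genes Fam64a and Cenpf) 164 CPM, and the basophil and mast cell-like cluster 5 (led by the mast cell protease gene Cma1) 148 CPM.

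Hbb-bs was low in these clusters, whatever their Hbb-bt level. It stood at 3.17 CPM in cluster 4, 3.05 in cluster 0, 2.97 in cluster 1, 1.77 in cluster 3 and 9.48 in cluster 5, and had 0 UMIs in the 127 cells of cluster 2. The share of cells with an Hbb-bs UMI was 2.30% to 2.66% in the 5 clusters where it was seen. The Hbb-bt to Hbb-bs ratio was 250 in cluster 4 (202 to 314) and 15.7 in cluster 5, which held the cell with 61 Hbb-bs UMIs. The 49 mCherry cells in other clusters had 36.0 CPM of Hbb-bt (24 UMIs in 8 cells).

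A few non_mCherry cells shared these clusters, and those in clusters 4 and 1 had Hbb-bt with no Hbb-bs. In cluster 4, 35 non_mCherry cells had 707 CPM of Hbb-bt (126 UMIs), with a UMI in 51.4% of them (34.0 to 68.6) and 0 Hbb-bs UMIs. In cluster 1, 35 non_mCherry cells had 147 CPM (26 UMIs) and 0 Hbb-bs UMIs. The control library had at most 1 cell in any of the 6 clusters. Whether these non_mCherry cells carried the recombined allele was not tested.

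Without globin-rich barcodes, the highest levels of all 4 genes in non_mCherry and control were in cluster 22, among clusters of at least 100 cells. It is an erythroid progenitor-like cluster led by Cldn13, Rhd and Add2, in which mCherry had 0 cells. With those barcodes in, the megakaryocyte-like cluster 17 was highest in non_mCherry, where 1 such cell lifted Hbb-bt to 751 CPM, against 12.5 CPM without it. In cluster 22 Hbb-bt stood at 379 CPM in non_mCherry (317 cells) and 298 CPM in control (366 cells) when they were left out. The cluster had 185 CPM of Hbb-bs, 268 of Hba-a1 and 43.1 of Hba-a2 in non_mCherry, and 196 CPM of Hbb-bs, 281 of Hba-a1 and 56.2 of Hba-a2 in control. The ratio of Hbb-bt to Hbb-bs was 2.05 in non_mCherry (1.92 to 2.18) and 1.52 in control (1.44 to 1.61). The erythroid progenitor-like cluster 6, led by Car1, had less globin, with 95 Hbb-bt UMIs in 426 non_mCherry cells and 172 in 435 control cells (18.2 CPM in control), beside 183 CPM of Klf1 in non_mCherry. Cluster 22 had 293 CPM of Klf1 in non_mCherry and 287 CPM in control.

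Hbb-bt also exceeded Hbb-bs in clusters with little Klf1. Cluster 9 (led by Wfdc17 and Myl10) and cluster 13 (led by Bex1) were left without a name. Cluster 9 had 38.7 CPM of Hbb-bt in non_mCherry (642 cells) and 38.4 CPM in control (1261 cells), while Hbb-bs stood at 8.37 CPM in non_mCherry and 26.2 CPM in control. Its Klf1 level was 2.44 CPM in non_mCherry and 1.99 CPM in control. In cluster 13 Hbb-bt stood at 20.3 CPM in non_mCherry and 28.1 CPM in control, and Hbb-bs at 7.54 CPM in non_mCherry and 15.3 CPM in control. Over 14 clusters of at least 100 cells per library, Hbb-bt exceeded Hbb-bs in 5 in non_mCherry and in 3 in control. Those of control were clusters 9, 13 and 22.

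**Figure D5:**
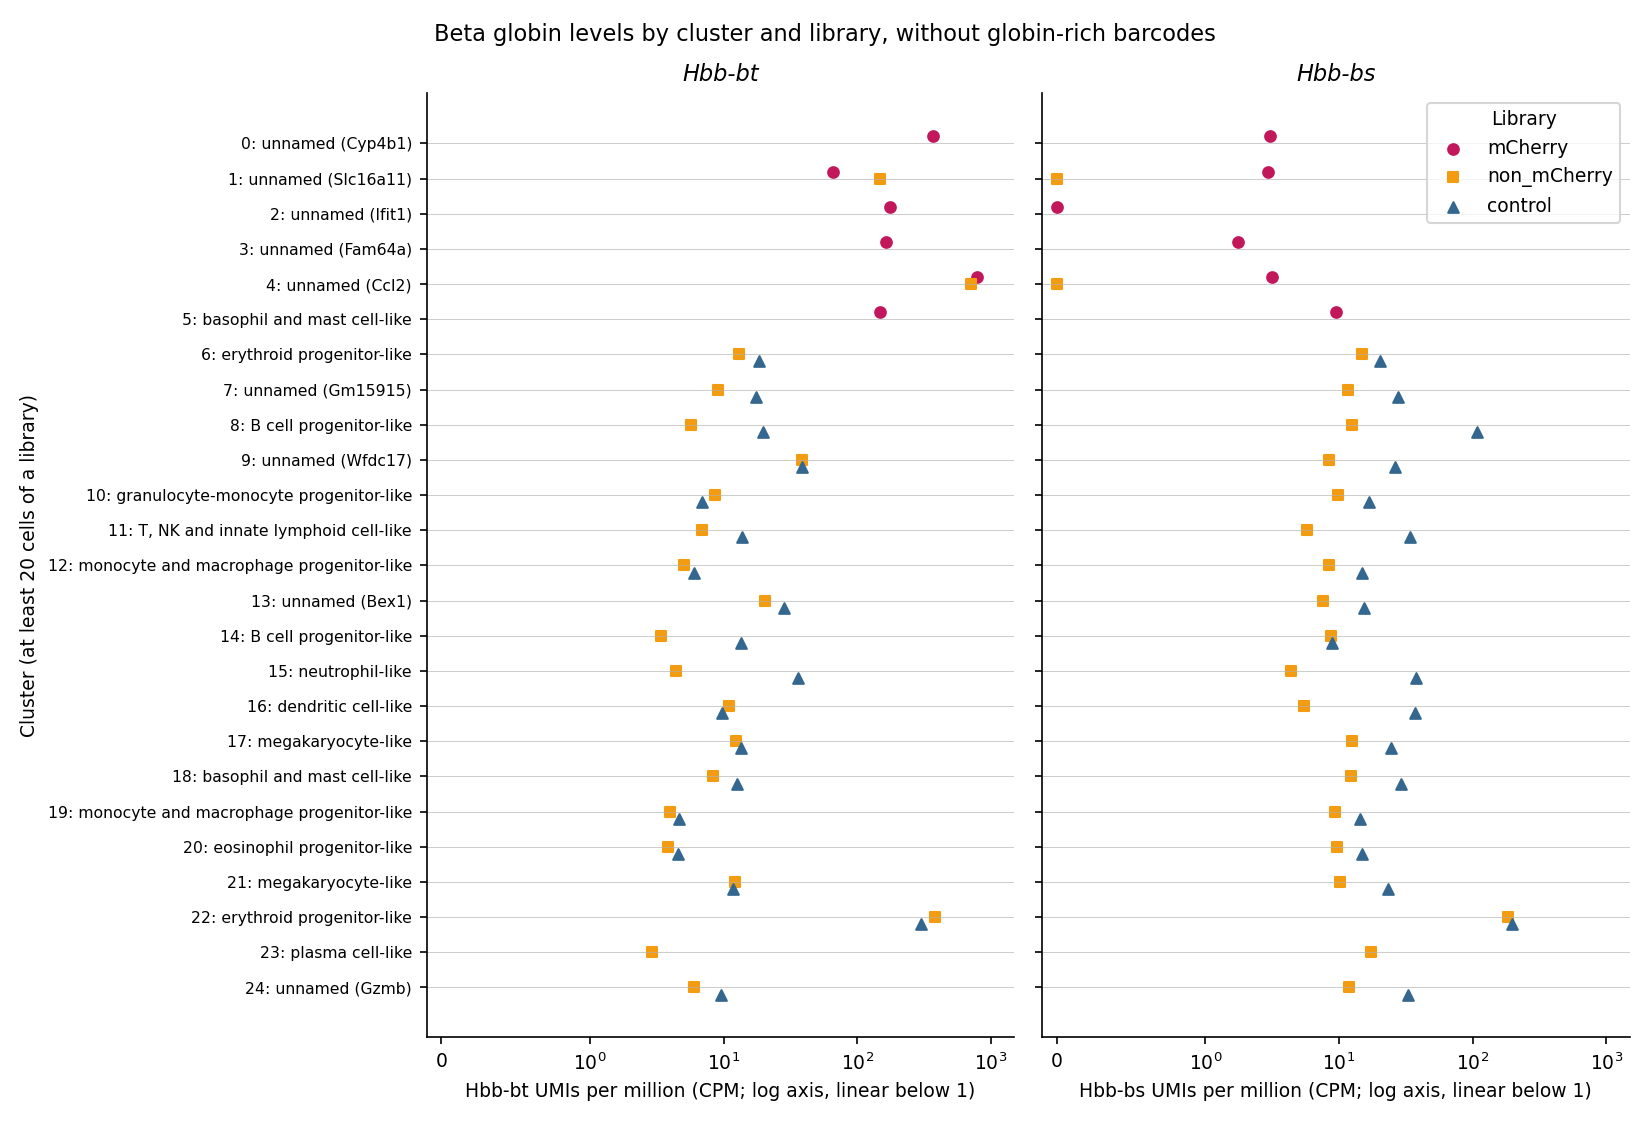
Level of Hbb-bt (left) and Hbb-bs (right) in CPM (log axis, linear below 1) by cluster, for each of mCherry, non_mCherry and control with at least 20 cells there, without globin-rich barcodes. In clusters 0 to 5 Hbb-bt runs from 65.7 to 794 CPM in mCherry while Hbb-bs is at most 9.48 CPM, and in cluster 22 both genes are high in non_mCherry and control.

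The share of cells with at least 1 UMI parted the genes in the same way. Hbb-bt was seen in 33.5% of filtered mCherry cells (32.6 to 34.4), 10.2% of non_mCherry cells (9.50 to 10.9) and 16.3% of control cells (15.5 to 17.1). Hbb-bs was seen in 2.48% of mCherry, 11.3% of non_mCherry and 25.5% of control cells. Hba-a1 was seen in 0.875% of mCherry, 7.22% of non_mCherry and 13.8% of control cells, and Hba-a2 in 0.560% of mCherry, 4.24% of non_mCherry and 8.11% of control cells. The 3 genes thus had their lowest share in mCherry, where Hbb-bt had its highest. Since depth differed, each cell was also thinned to 2000 UMIs, which left no filtered cell out. Thinned Hbb-bt shares were 20.4% for mCherry, 3.35% for non_mCherry and 4.48% for control, and thinned Hbb-bs shares 0.619% for mCherry, 2.55% for non_mCherry and 5.09% for control. In positive cells the median was 3 Hbb-bt UMIs in mCherry and 1 in each other library, and 1 Hbb-bs UMI in all 3.

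Free RNA gives some globin UMIs in cells that make none, so shares were set beside gates that should lack globin, taken without globin-rich barcodes. Neutrophil-directed cells, with at least 3 Elane UMIs and no Klf1 or Gata1, had an Hbb-bs UMI in 13.3% of 1463 non_mCherry cells (median depth 17322) and in 25.4% of 3313 control cells (median depth 19771). Their Hbb-bt shares were 8.07% in non_mCherry and 10.8% in control. B lineage cells, with UMIs of at least 2 of Cd79a, Cd79b, Ebf1 and Vpreb1 and no Klf1 or Gata1, had Hbb-bs in 7.13% of 2581 non_mCherry cells (median depth 6351) and 23.4% of 184 control cells (median depth 16834). Their Hbb-bt shares were 3.84% for non_mCherry and 15.8% for control. The Hbb-bs share of all non_mCherry cells (11.3%) lay between those of the 2 gates. That of all control cells was 25.5%, or 25.3% without globin-rich barcodes. Either value was inside the interval of the neutrophil-directed gate (24.0 to 27.0), so by share all control cells are not set apart from that gate. Gate cells are also counted among all cells of their library, so some likeness is built in. The gate was deeper than all control cells (median 15416 UMIs). By level, without globin-rich barcodes, Hbb-bs in control stood at 33.8 CPM over all cells. It stood at 16.2 CPM in the neutrophil-directed gate and 23.1 CPM in the B lineage gate. Within cluster 22 Hbb-bs was above both gates, with a UMI in 53.6% of non_mCherry and 68.0% of control cells, at greater depth (medians of 26742 UMIs in non_mCherry and 32710 in control). The Hbb-bt share of all non_mCherry cells (10.2%, or 10.1% without globin-rich barcodes) lay above both gates. That of all control cells was 16.3%, or 16.1% without globin-rich barcodes. Either value lay above the neutrophil-directed gate (9.80 to 11.9) and inside the interval of the smaller B lineage gate (10.8 to 21.8). The Hbb-bt to Hbb-bs ratio of neutrophil-directed cells was 0.606 in non_mCherry (0.489 to 0.749) and 0.405 in control (0.361 to 0.453), in both above that of the globin-rich barcodes of the library.

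In mCherry the gates were small, with 8 neutrophil-directed cells and 44 B lineage cells. The B lineage gate there had Hbb-bt in 27.3% and Hbb-bs in 4.55% of cells (0.555 to 15.5; median depth 10366). The shares of all mCherry cells in Hbb-bt (33.5%) and Hbb-bs (2.48%) were inside the intervals of that gate, which is too small to set either apart from it. Of those 44 cells, 27 lay in the 6 mCherry clusters and held 77 of their 79 Hbb-bt UMIs, while 15 lay in B cell progenitor-like clusters with 2 Hbb-bt UMIs. The Hbb-bt share differed between mCherry clusters 4 and 1, of like depth, as given above. What part free RNA had in the Hbb-bt UMIs of mCherry was not tested.

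Cells with Hbb-bt in mCherry had other contents than those of the other libraries. Among Hbb-bt-positive cells without globin-rich barcodes, an Hbb-bs UMI was seen in 3.47% of 3405 in mCherry (2.88 to 4.14), 28.5% of 796 in non_mCherry and 36.5% of 1423 in control. An alpha globin UMI was seen in 51 of those cells in mCherry, 233 in non_mCherry and 457 in control. Cells with at least 20 Hbb-bt UMIs numbered 518 in mCherry, 39 in non_mCherry and 44 in control. Of those in mCherry, 0.386% had a Klf1 UMI, 6.56% a UMI of the erythroid factor gene Gata1 and 3.28% an Hbb-bs UMI. Of those in non_mCherry, 92.3% had a UMI of each of these 3 genes. Of those in control, 97.7% had Klf1, 95.5% Gata1 and 93.2% Hbb-bs. Among mCherry cells with no Hbb-bt UMI, 1.92% had Klf1, 11.4% Gata1 and 1.97% Hbb-bs (1.65 to 2.33). Such cells of non_mCherry had Klf1 in 17.3%, Gata1 in 17.7% and Hbb-bs in 9.37%. Those of control had Klf1 in 17.7%, Gata1 in 21.9% and Hbb-bs in 23.1%. The Hbb-bs share thus differed between libraries in cells without Hbb-bt too, so the shares in Hbb-bt-positive cells in part restate that difference. Within mCherry, Hbb-bs was thus rare with or without Hbb-bt, and somewhat more frequent in the Hbb-bt-positive cells. Depth was not matched between those cells, and its part in the difference was not tested. In mCherry 381 of the 518 (73.6%) were in cluster 4, while 36 of the 39 in non_mCherry and 43 of the 44 in control were in cluster 22.

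The alpha pair varied less than the beta pair, within the uncertainty of telling its copies apart. Over all barcodes, mCherry had 1.37 times as many Hba-a1 as Hba-a2 UMIs, non_mCherry 1.56 times and control 1.68 times. Without globin-rich barcodes, filtered cells gave 1.66 for mCherry, 4.43 for non_mCherry and 3.54 for control. Alpha to beta UMIs stood at 0.199 in mCherry, 0.571 in non_mCherry and 0.552 in control over all barcodes, and at 0.00546 in mCherry, 0.492 in non_mCherry and 0.557 in control in filtered cells without globin-rich barcodes.

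Other globin genes were near 0. The embryonic beta-type gene Hbb-y had 30 UMIs in 14 barcodes of mCherry, 2 UMIs in 2 barcodes of non_mCherry and 1 UMI in control. Up to 6 of its UMIs were in 1 barcode. Of the 14 mCherry barcodes, 7 had Hbb-bt, 0 had Hbb-bs and 0 had Klf1. Over all mCherry barcodes, 31.8% had Hbb-bt, 2.44% had Hbb-bs and 172 of 11323 had Klf1, so nothing is read from these small counts. Hbb-bh1, Hbb-bh2, Hba-x and the myoglobin gene Mb had 0 UMIs in each library, which allows a level of up to 3 UMIs, or 0.0308 CPM in mCherry, 0.0323 CPM in non_mCherry and 0.0199 CPM in control. The theta globin genes Hbq1a and Hbq1b had 0 and 0 UMIs in mCherry, 4 and 3 in non_mCherry and 9 and 34 in control. Cygb, which encodes cytoglobin, had 32 UMIs in mCherry, 0 in non_mCherry and 2 in control. The neuroglobin gene Ngb had 3 UMIs in mCherry, 4 in non_mCherry and 11 in control.

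Factors that act on globin loci differed by 2-fold between mCherry and control about as often as other genes. Of 28 listed factors, 27 were tested between mCherry and control, of which 5 were at least 2-fold higher and 2 lower, where 14.9% of all tested genes were higher and 10% lower. Their median log2 ratio was 0.22, beside 0.08 over all tested genes. Klf1 stood at 2.37 CPM in mCherry, 58.3 CPM in non_mCherry and 50.7 CPM in control, 21.4-fold lower in mCherry than in control. Gfi1b, a repressor needed in erythroid and megakaryocytic cells, had 8.39 CPM in mCherry, 28.4 CPM in non_mCherry and 28.8 CPM in control. Sox6, which silences embryonic globin in the mouse, had 27.7 CPM in mCherry, 3.01 CPM in non_mCherry and 4.13 CPM in control. Runx1, itself part of the knock-in, had 376 CPM in mCherry and 148 CPM in both non_mCherry and control. Between non_mCherry and control 0 of the 26 tested factors were higher or lower by that size, where 1.1% of all tested genes were higher and 0.178% lower.

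Genes of haem and iron supply were more often lower than higher in mCherry. Of 18 tested against control, 2 were at least 2-fold higher and 8 lower, where 14.9% of all tested genes were higher and 10% lower. Their median log2 ratio was -0.77, beside 0.08 over all tested genes. The transferrin receptor gene Tfrc, which brings iron into the cell, had 6.48 CPM in mCherry, 75.8 CPM in non_mCherry and 81.7 CPM in control. Alas1, which encodes the first enzyme of haem synthesis in most tissues, had 18.5 CPM in mCherry, 75.7 CPM in non_mCherry and 145 CPM in control. Bach1, which encodes a repressor whose DNA binding is relieved by haem, was higher in mCherry at 76.6 CPM, with 30.9 CPM in non_mCherry and 28.3 CPM in control. Hebp1, a haem-binding protein gene, had 54.6 CPM in mCherry, 24.0 CPM in non_mCherry and 22.6 CPM in control. Between non_mCherry and control 0 of 18 differed by 2-fold, where 1.1% of all tested genes were higher and 0.178% lower.

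Among genes of the red cell membrane and surface, more were lower than higher in mCherry as well. Of 27 listed, 9 were tested between mCherry and control, with 1 at least 2-fold higher and 5 lower, where 14.9% of all tested genes were higher and 10% lower. Their median log2 ratio was -2.33, beside 0.08 over all tested genes. Car1, an early erythroid carbonic anhydrase gene, had 6.09 CPM in mCherry, 524 CPM in non_mCherry and 459 CPM in control. Ermap, an erythroid membrane protein gene, had 0.217 CPM in mCherry, 54.6 CPM in non_mCherry and 39.7 CPM in control. Gypc, which encodes glycophorin C, had 46.7 CPM in mCherry, 19.6 CPM in non_mCherry and 19.8 CPM in control. In non_mCherry against control, 0 of 10 tested differed by 2-fold, where 1.1% of all tested genes were higher and 0.178% lower.

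Across clusters the pattern of Hbb-bt stood apart from that of the other 3 globins. Over 34 combinations of cluster and library with at least 100 cells, which share libraries and differ in depth, Spearman's rho between Hbb-bs and Hba-a1 was 0.96 and between Hbb-bs and Hba-a2 0.93. Between Hbb-bt and Hbb-bs it was 0.22, or -0.03 without globin-rich barcodes. The combinations include the mCherry clusters, where Hbb-bt was high and the other globins low. These low values of rho therefore in part restate the library difference for which the genes were chosen. Within non_mCherry and within control, all these globins were highest in cluster 22 without globin-rich barcodes, and no rho within a library is given. The genes most like Hbb-bt among 8545 were Fbxo7 (0.74), Arhgap23 (0.74), Mgat4b (0.72), Specc1 (0.72) and Cdk16 (0.71). Without globin-rich barcodes they were Myo18a (0.81), Eng (0.81), Slc30a9 (0.80), Fbxo3 (0.79) and Cdk16 (0.79). Genes like Hbb-bs, after the alpha genes, included Bcas2 (0.70) and Tceal8 (0.69), and genes like Hba-a1 included Degs1 (0.71) and Dnajc24 (0.69). These are descriptions of likeness over shared libraries, with no test.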

How the data were processed

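The authors deposited, for each of 3 libraries, a matrix of UMI counts with barcodes and 27998 genes. The submitters' processing notes name Cell Ranger 6.1.2 and mm10, while the file headers give software version 3.1.0, and which made the counts is not settled here. The knock-in and mCherry sequences were not used here. The 4 genes, the gene lists and the marker lists were chosen with earlier results of these data known.

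Cells were kept at 1000 or more genes, 2000 or more UMIs and at most 10% of UMIs from mitochondrial genes, less those with a Scrublet score over 0.25 (247 mCherry, 204 non_mCherry and 217 control cells). The automatic Scrublet threshold called 0 mCherry cells, so 1 common threshold was set. Counts were summed per library and divided by its total (CPM). A gene was tested for 2-fold size where 1 library of the pair had at least 20 CPM, with a pseudocount of 5. Sums carry exact Poisson intervals, shares exact Clopper-Pearson intervals, and ratios the interval of the share. A value of 0 allows up to 3 counts.

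Leiden clustering (scanpy 1.11.5, 2000 variable genes without globins, 30 components, 15 neighbours, resolution 1.0) gave 25 clusters, named where a marker list averaged a log2 ratio of at least 1, 3 of its genes were 2-fold up and the top 10 genes held at least 1 of its own and no more of another list. Calls were checked on simulated counts. Named genes were the 4 genes, other globins, up to 2 furthest each way per list at 1.5-fold or more, and the 5 most alike, of which some are not reported here. Alternatives were other barcode sets, doublets kept, median of ratios scaling, thinning to 2000 UMIs, leaving out the 1% of cells richest in globin, and other Klf1 gates. Leaving out globin-rich barcodes was added after the data were seen. Proteins were not compared here.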

Additional observations from a re-analysis of the deposited data

How the results depend on the processing

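With 1 library per group, none of these values has a replicate check, and depth per cell limits what a missing UMI shows. Quotients of CPM over control were 2.99 (mCherry) and 0.575 (non_mCherry) for Hbb-bt and 0.146 (mCherry) and 0.236 (non_mCherry) for Hbb-bs in filtered cells. Over all barcodes mCherry had 1.48 for Hbb-bt and 0.182 for Hbb-bs, and non_mCherry 0.631 and 0.518. In cells thinned to 2000 UMIs mCherry had 2.19 for Hbb-bt and 0.0413 for Hbb-bs, and non_mCherry 0.267 and 0.0876. Without the 1% of cells richest in globin, mCherry had 14.2 for Hbb-bt, and non_mCherry 0.867 for Hbb-bt and 0.545 for Hbb-bs. Those cells were picked by the sum of the globin genes themselves, so these values follow in part from that choice. Median of ratios scaling gave 2.61 for Hbb-bt and 0.128 for Hbb-bs in mCherry, and keeping doublets 3.07 for Hbb-bt in mCherry. Without globin-rich barcodes, an alternative chosen after the data were seen, mCherry had 9.31 for Hbb-bt and 0.112 for Hbb-bs, and non_mCherry 1.28 and 0.787. Each of these kept Hbb-bt above and Hbb-bs below control in mCherry, while Hbb-bt in non_mCherry turned above control only without globin-rich barcodes.

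The Hbb-bt to Hbb-bs ratio in mCherry, non_mCherry and control was 2.38, 0.357 and 0.293 over all barcodes, 91.2, 1.49 and 0.934 without the richest 1%, 19.2, 1.10 and 0.362 in thinned cells and 89.8, 1.75 and 1.08 without globin-rich barcodes. The last moved control across 1. The richest 1% and the globin-rich barcodes were both picked by the sum of the globin genes. The higher ratios without them follow in part from that choice. With doublets kept, mCherry had 8.66. In Klf1-negative cells the ratios in mCherry, non_mCherry and control were 2.38, 0.252 and 0.243 over all barcodes and 113, 1.34 and 0.670 without globin-rich barcodes. Thinned cells gave 19.2 in mCherry and 0.427 in control, and the 8-gene gate 123 in mCherry and 0.435 in control. In Klf1-positive cells, all barcodes gave 0.712 in non_mCherry and 0.425 in control, thinned cells 0.826 in non_mCherry and 0.342 in control, and leaving out globin-rich barcodes 1.89 in non_mCherry and 1.38 in control, which moved control across 1. At 2 Klf1 UMIs non_mCherry had 1.47. For mCherry the Klf1-positive ratio was below 1 at 2 Klf1 UMIs (0.750) and in the 8-gene gate (0.606), and was 15.7 without the cell that held most Hbb-bs UMIs. Thinned Klf1-positive mCherry cells had 9 Hbb-bt and 0 Hbb-bs UMIs and gave no ratio.

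Shares of cells with a UMI in thinned cells were 20.4%, 3.35% and 4.48% for Hbb-bt and 0.619%, 2.55% and 5.09% for Hbb-bs in mCherry, non_mCherry and control. Over all barcodes they were 31.8% and 9.20% for Hbb-bt in mCherry and non_mCherry and 10.5% for Hbb-bs in non_mCherry. Of 36 alternative values for the alpha genes, 11 stayed within the counting interval, 25 moved beyond it and 0 changed direction. No paired analysis was possible because each group is 1 library, and the cause of the moves was not tested.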

Other observations

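Within cluster 4 of mCherry, the 381 cells with at least 20 Hbb-bt UMIs (median depth 9067 UMIs) were set beside the 1389 cells with 0 (median depth 7816), a comparison chosen after the values were seen. Of 5896 genes other than globins with at least 20 CPM in either, 11 were at least 2-fold higher and 20 lower on log2(CPM + 5). The adaptor gene Tyrobp stood at 728 CPM in the cells with Hbb-bt and 253 CPM in those without, and the chemokine gene Ccl3 at 25.3 and 6.49 CPM. The integrin gene Itgb7 had 51.0 and 17.8 CPM, the surface antigen gene Cd24a 150 and 62.7 CPM and the transferrin gene Trf 358 and 158 CPM. Lower in the cells with Hbb-bt were the transcription factor genes Mef2c (11.4 against 47.0 CPM) and Meis1 (31.6 against 84.5 CPM). The MHC class II gene H2-Ab1 had 9.30 against 28.5 CPM and the growth factor gene Igf1 7.18 against 26.3 CPM.

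Erythroid genes gave little signal in either set. Klf1 had 0 UMIs in the 381 cells and 7 UMIs in the 1389, Car1 0 and 2, Epor 0 and 4, and Ermap, Rhag and Cldn13 0 in both. Gata1 stood at 4.25 and 8.31 CPM. Hbb-bs stood at 4.25 CPM in the cells with Hbb-bt (16 UMIs) and 2.34 CPM in those without (27 UMIs). All these cells come from 1 library of 1 mouse, so the values describe that library and carry no test.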
